A study of Saccharomyces cerevisiae with 24 samples.

Results

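The yeast strain with the dot4-1 allele was compared with a strain carrying DOT4 without an epitope tag, through a reference strain that both were hybridised against. Membership followed the strain names in the labels: 12 of the 24 arrays of the series, 6 per strain, hold these strains. UCC6406 carries dot4-1 with 6Myc, UCC6432 carries DOT4 with no tag, and the reference UCC6408 carries DOT4-6Myc. All were Saccharomyces cerevisiae grown in YEPD, a rich glucose medium, and total RNA was labelled with Cy5 and Cy3. Each strain had 3 numbered sets, and each set had 2 arrays with the dyes exchanged. The other 12 arrays set a dot4 null strain (UCC6435) and dot4-5-6Myc (UCC6407) against the same reference, and they entered here through the shared estimate of the spread and one test against the null. The dot4-1 strain and the untagged strain differ in the allele and in the tag, so a difference between them cannot be told apart into these parts by itself. The ratio of each strain to DOT4-6Myc is therefore given beside it. The sources used here do not give what dot4-1 changes in the protein, the growth phase of the cultures, the other markers of the strains, or whether each set was its own culture. The p-values therefore cover only the variation from set to set, which could be technical.

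DOT4 is listed as UBP10 (YNL186W) in the reference annotation. Its product is a protease that removes ubiquitin from histone H2B, and DOT genes take their name from the disruption of telomeric silencing. In budding yeast the Sir proteins keep genes near chromosome ends and at the silent mating loci in a repressed state, and reporter genes placed near a chromosome end are used to follow it. In this yeast, genes for ribosome synthesis and genes for stress or reserve carbohydrates often change in opposite directions, and many of the genes below belong to one of these groups.

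All values are log2 ratios of a strain to DOT4-6Myc, or differences between such ratios, and a set value is the mean of both dye orders on median-centred arrays. The sign was fixed so that UBP10 is lower in the null strain. With the ratios read in the strain order of the labels, the null strain had more UBP10 signal on 6 of 6 arrays, at 4.03 to 5.30, so all arrays were turned, and the direction used here is the likely one, opposite to that order. In the order of the labels every sign below would be exchanged. UBP10 differs little between untagged DOT4 and the reference, so no gene of known level checks the strain names on the untagged arrays by themselves. Were the names exchanged on those 6 arrays only, the number of genes past the threshold would be 3760, and 18 of the 136 genes chosen by the naming rule would change sign, MRPL19, ZRT1, HXK1 and DIA1 among them. Values so obtained are called turned below and stand beside the lists they change.

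Set means had higher Pearson correlations across genes within dot4-1 (0.876 to 0.963) than within untagged DOT4 (0.663 to 0.778). The arrays of dot4-1 were also more widely spread, with interquartile ranges of 0.405 to 0.56 against 0.203 to 0.262. Across 6195 genes tested, the median SD over sets was 0.070 in dot4-1 and 0.065 in untagged DOT4, and the median size of the difference between the strains was 0.24. In the limma fit, 3888 genes passed an adjusted p of 0.05 (percent called 62.8), 1959 higher in dot4-1 (31.6%) and 1929 lower (31.1%). Differences of at least 2-fold were rarer: 181 genes (2.92%), 64 higher in dot4-1 and 117 lower. The same counts of at least 2-fold were 96 for dot4-1 against DOT4-6Myc (1.55%) and 11 for untagged DOT4 against DOT4-6Myc (0.178%). The 3 sets of dot4-1 lay wholly above or wholly below the 3 of untagged DOT4 in 4310 genes (69.6%). The counts in the gene lists below are to be read against these shares.

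UBP10 and the genes beside it came first. UBP10 lay at -0.57, -0.60 and -0.68 in the 3 sets of dot4-1 and at -0.14, -0.11 and -0.27 in those of untagged DOT4. The groups did not overlap, and the difference was -0.44 with a standard error of 0.13 (1.36-fold lower in dot4-1, adjusted p = 0.0111). Against DOT4-6Myc, UBP10 fell in dot4-1 (-0.62 ± 0.054, SD, n = 3 sets, adjusted p = 7.61e-05), while untagged DOT4 was at -0.17 ± 0.081 (adjusted p = 0.202). The call of the difference was lost with arrays scaled to a common spread, at -0.16, and on arrays with the strain in Cy5 only, at -0.37.

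MRPL19 (YNL185C), which encodes a mitochondrial ribosomal protein, is the next gene on the 3' side of UBP10 and runs towards it. Its set values were 0.75, 0.47 and 0.56 in dot4-1 and -1.08, -1.15 and -1.07 in untagged DOT4. MRPL19 was thus 3.23-fold higher in dot4-1, by 1.69 with a standard error of 0.082 (adjusted p = 2.6e-08). The larger share of that difference lay on the untagged side. The strains labelled null and dot4-5 were at 0.22 ± 0.16 and 0.056 ± 0.018, and the turned difference of MRPL19 was -0.50. SWT21 (YNL187W), on the other side of UBP10, was higher in dot4-1 by 0.34 (0.24 ± 0.026 against -0.10 ± 0.042, adjusted p = 0.000431). One gene farther out, KAR1 was higher by 0.52 and YNL184C was at a difference of 0.14 that did not pass (adjusted p = 0.0953). KAR1 and YNL184C were chosen after their values were seen.

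**Figure D1:**
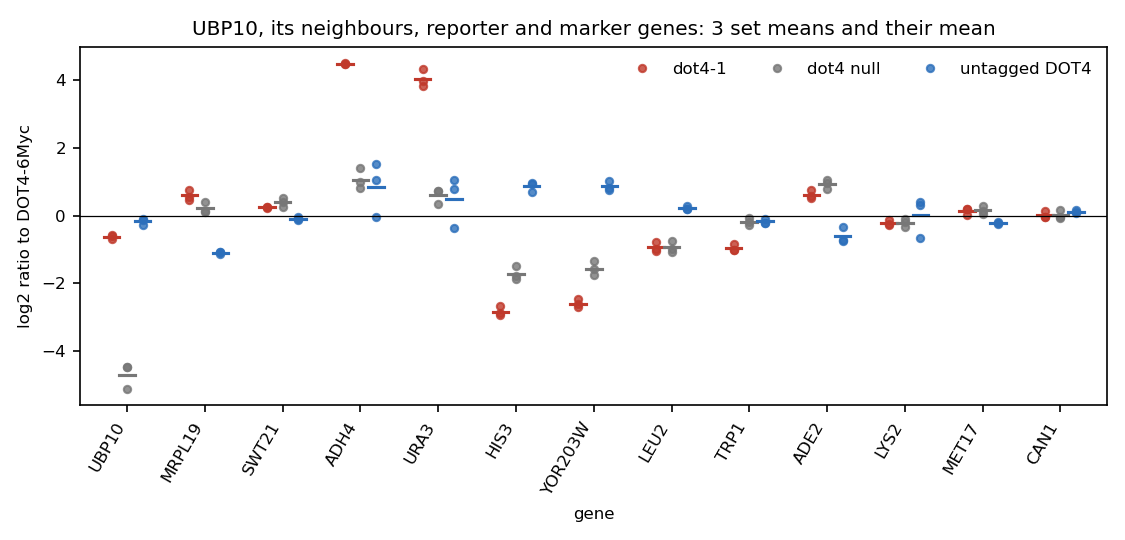
Log2 ratio to DOT4-6Myc (vertical axis) of UBP10, its 2 neighbours and 10 reporter and marker genes (horizontal axis) in dot4-1, the strain labelled null and untagged DOT4. Points are the 3 set means and bars their mean. ADH4 and URA3 stand far above the reference in every set of dot4-1, HIS3 and YOR203W stand far below it there, and untagged DOT4 shows a wide spread of ADH4, URA3 and LYS2.

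The reporter and marker genes gave the largest differences of the whole comparison. ADH4 (YGL256W), an alcohol dehydrogenase gene close to the left end of chromosome VII, had set values of 4.47, 4.48 and 4.50 in dot4-1 and of -0.032, 1.04 and 1.52 in untagged DOT4. The values of dot4-1 nearly coincided, whereas set 1 of untagged DOT4 lay far below its other 2 sets. ADH4 was 12.4-fold higher in dot4-1, by 3.64 with a standard error of 0.29 (adjusted p = 8.55e-07). URA3 (YEL021W), which encodes orotidine phosphate decarboxylase of uracil synthesis, behaved alike across the sets, at 3.83, 3.98 and 4.31 in dot4-1 and at -0.37, 0.78 and 1.06 in untagged DOT4. The difference of 3.55 (11.7-fold, standard error 0.28, adjusted p = 8.91e-07) was nearly as large, and again set 1 of untagged DOT4 was the low one. In the silencing field URA3 is often inserted at ADH4 as a telomere reporter, but the sources used here do not say whether these strains carry such an insertion. In RNA of whole cultures, more cells that express a gene and more RNA per cell cannot be told apart.

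Leaving out set 1 of untagged DOT4 gave differences of 3.20 for ADH4 and 3.12 for URA3. With arrays scaled to a common spread, both shrank, to 1.64 and 1.82, and still passed. The genes next to each did not rise as a block. At ADH4, the zinc transporter gene ZRT1 on the centromere side was also higher in dot4-1, by 1.88, with 0.81 ± 0.25 in the null. MNT2 on the telomere side was at -0.16 with a standard error of 0.30 (adjusted p = 0.665). The confidence interval of MNT2, -0.80 to 0.49, holds no rise like that of ADH4 but leaves a smaller difference undecided. Its sets varied widely in untagged DOT4, at -1.21, -0.033 and 0.40, with set 1 the low one as in ADH4 and URA3. In dot4-1 the sets of MNT2 were at -0.33, -0.58 and -0.40. VEL1, next beyond MNT2, was at 0.13 (adjusted p = 0.0798). Around URA3 at its own locus on chromosome V, GEA2 was at 0.20 (adjusted p = 0.0583) and TIM9 rose by 0.21 (adjusted p = 0.00681). MNT2, VEL1, GEA2 and TIM9 were chosen after their values were seen.

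HIS3 (YOR202W), of histidine synthesis, was the gene with the largest fall. It lay at -2.68, -2.88 and -2.94 in dot4-1 and at 0.97, 0.93 and 0.71 in untagged DOT4. The strains thus stood on opposite sides of the reference, in the direction used for the untagged arrays. The difference was -3.70 (13.0-fold lower in dot4-1, standard error 0.10, adjusted p = 6.99e-10). YOR203W overlaps HIS3 and cannot be read apart from it; its difference was -3.47. The flanking genes MRM1 at 0.16 and DED1 at -0.14, chosen after their values were seen, had far smaller differences.

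LEU2 of leucine synthesis was lower in dot4-1 by a difference of -1.16 and TRP1 of tryptophan synthesis by -0.80, with sets that did not overlap. ADE2, of purine synthesis, had 0.52, 0.59 and 0.75 in dot4-1 against -0.35, -0.76 and -0.72 in untagged DOT4, which made it 2.34-fold higher (difference 1.23, adjusted p = 1.37e-06). Its means lay at similar distances above and below the reference (0.62 ± 0.12 and -0.61 ± 0.23), so this rise depends on the direction of the untagged arrays. Turned, 2 of the 10 reporter and marker genes were higher and 4 lower, against 4 and 4 in the direction used. MET17 (listed also as MET15), of sulfur amino acid synthesis, was higher by 0.35 (adjusted p = 0.000544). LYS2 of lysine synthesis and the arginine permease gene CAN1 did not pass, at -0.24 (95% interval -0.70 to 0.22) and -0.086 (95% interval -0.23 to 0.062). For LYS2 the dyes disagreed, with -1.15 for strains in Cy5 and 0.67 for strains in Cy3, both past the threshold, and it passed at -0.57 (adjusted p = 0.000589) without set 1 of untagged DOT4. Differences in marker genotype and in DOT4 cannot be told apart for these genes.

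**Figure D2:**
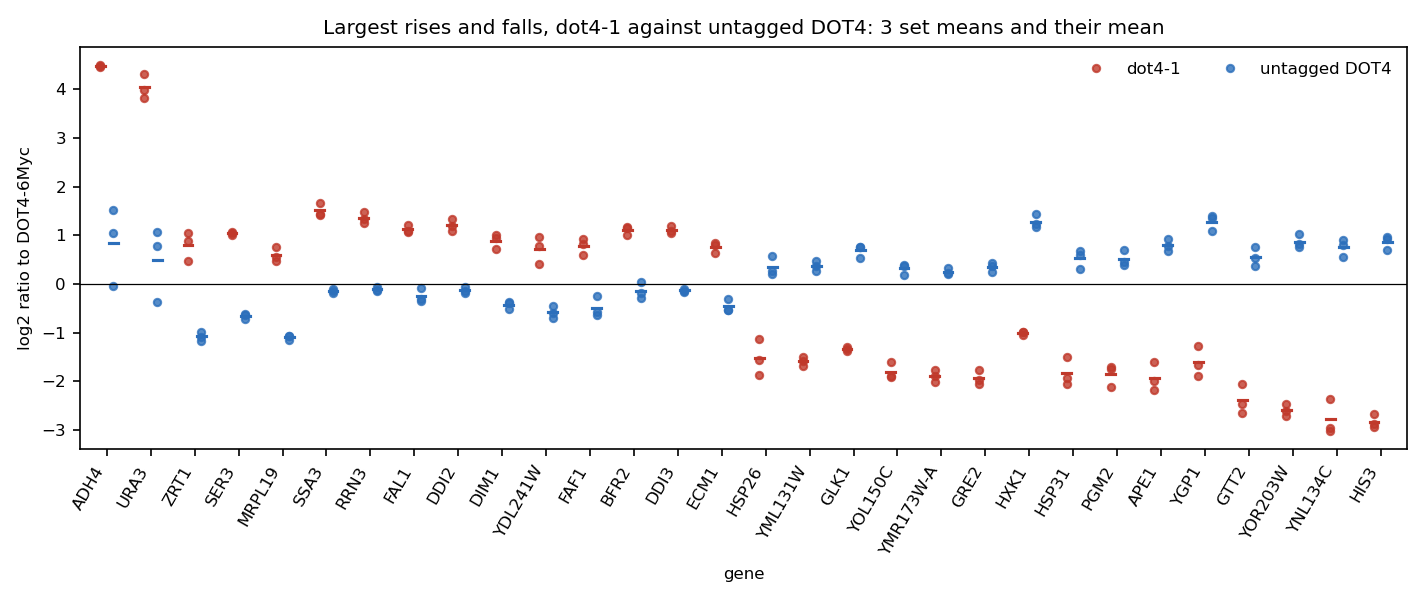
Log2 ratio to DOT4-6Myc (vertical axis) of the 15 genes with the largest rises and the 15 with the largest falls in dot4-1 against untagged DOT4 (horizontal axis, ordered by the difference). Points are the 3 set means and bars their mean. Past ADH4 and URA3 on the left, the means of the strains lie on opposite sides of the reference, which holds only in the direction used for untagged DOT4. The genes were chosen by the size of the difference, which favours such opposite sides.

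Past ADH4, URA3, ZRT1 and MRPL19, the largest rises were spread over several functions. SER3, which encodes the first enzyme of serine synthesis from glycolytic intermediates, was at 1.00, 1.05 and 1.07 in dot4-1 and at -0.71, -0.63 and -0.61 in untagged DOT4. The sets of each strain were close together, and the difference of 1.69 (3.23-fold, standard error 0.055, adjusted p = 1.5e-09) was among the best determined. SSA3, a chaperone gene of the HSP70 family, was higher by 1.66 (1.51 ± 0.14 against -0.15 ± 0.037). RRN3, whose product recruits RNA polymerase I to ribosomal DNA, was higher by 1.47 (1.36 ± 0.11 against -0.11 ± 0.052). DDI2 and DDI3, near-identical genes for a cyanamide hydratase at different chromosome ends, rose by 1.34 and 1.24, and cross-hybridisation between them cannot be told apart. Of the other 6 of these 15 genes, FAL1, DIM1, FAF1, BFR2 and ECM1 act in ribosome synthesis or export and rose by 1.23 to 1.38, and YDL241W, of unknown function, rose by 1.30.

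The largest falls besides HIS3 were led by reductase and detoxification genes. YNL134C, a gene of the alcohol dehydrogenase superfamily, lay at -2.36, -3.02 and -2.96 in dot4-1 and at 0.91, 0.55 and 0.80 in untagged DOT4. It was 11.6-fold lower in dot4-1 (difference -3.53, standard error 0.20, adjusted p = 7.57e-08). GTT2, a glutathione transferase gene, had -2.06, -2.46 and -2.65 against 0.77, 0.38 and 0.53, a difference of -2.95 (7.73-fold lower). GRE2, a methylglyoxal reductase gene, was lower by a difference of -2.28 and its overlapping frame YOL150C by -2.12; these signals cannot be told apart. The glyoxalase gene HSP31 was at -2.36 and YML131W at -1.97. The null strain was low as well, with YNL134C at -2.55 ± 0.41 and GTT2 at -2.48 ± 0.32. In limma, dot4-1 minus dot4 null did not pass for YNL134C, GTT2, HSP31 and YML131W. GRE2 and YOL150C were lower in dot4-1 than in the null, by differences of -0.42 and -0.40.

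A further group among the largest falls serves carbohydrate use and the vacuole. YGP1, a secreted glycoprotein gene induced by nutrient limitation, was at -1.28, -1.89 and -1.67 in dot4-1 and at 1.36, 1.08 and 1.41 in untagged DOT4, a difference of -2.89 (7.44-fold, adjusted p = 2.69e-07). APE1, the vacuolar aminopeptidase carried by the Cvt pathway, was lower by a difference of -2.72. PGM2, the major phosphoglucomutase gene, had a difference of -2.37, which lay mostly in dot4-1 (-1.86 ± 0.23 against 0.51 ± 0.16). For the hexokinase gene HXK1 the untagged side was larger: -0.99, -1.05 and -0.99 in dot4-1 against 1.23, 1.17 and 1.44, with a difference of -2.29. Were the strain names exchanged on the untagged arrays only, HXK1 would be at 0.27 and not pass. The glucokinase gene GLK1 was at -2.03, YMR173W-A, which overlaps DDR48, at -2.15 and the small heat shock gene HSP26 at -1.87. In limma, dot4-1 minus dot4 null did not pass for YGP1, APE1 and HXK1. PGM2, GLK1, YMR173W-A and HSP26 were lower in dot4-1 than in the null, by differences of -0.71, -0.33, -0.52 and -0.98.

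Gene lists were then counted in the same fit; they were written with earlier results of these data known. Beside each count stands the median difference, against 0.0028 over all genes tested and 62.8% of genes called. Ribosome synthesis genes were higher in dot4-1 nearly throughout. Of 49 genes of the small-subunit processome, the particle that processes the 18S precursor, 48 rose and 0 fell, with a median difference of 0.79. Of 55 genes of large-subunit assembly, 53 rose and 1 fell (NOP13, difference -0.42), with a median of 0.88. Of 18 RNA polymerase I genes and factors, 14 rose and 1 fell (HMO1, difference -0.14), with a median of 0.54. NOP13 and HMO1 were named after their values were seen. In the small-subunit list, and in each list below with 0 genes in a direction in limma, the count in that direction was also 0 at an unadjusted p under 0.05, except for HSP30 among the stress-induced genes.

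Over these 3 lists together (122 genes), the median in sets 1, 2 and 3 was 0.42, 0.55 and 0.50 in dot4-1 and -0.30, -0.20 and -0.39 in untagged DOT4, so every set of one strain lay above and every set of the other below the reference. FAL1, an RNA helicase gene of early cleavage, led the small-subunit list at 1.38, followed by BFR2 at 1.25, KRR1 at 1.22 and UTP7 at 1.13. In the large-subunit list SDA1, NOP15, LOC1 and EBP2 rose by 1.11 to 1.21. RPA34, RPA43 and RPA49, which encode subunits specific to RNA polymerase I, rose by 1.09, 1.00 and 0.87. Of the 64 genes at least 2-fold higher in dot4-1, 25 were in these lists (39.1% of those genes and 20.5% of the lists), against 1.03% of all genes tested. DOT6, a repressor that binds upstream of many ribosome synthesis genes, was lower in dot4-1, at -1.18, -1.17 and -1.06 against -0.22, -0.26 and -0.10 (difference -0.94, adjusted p = 1.27e-07). In limma DOT6 was also lower in dot4-1 than in the null (-0.58 ± 0.050), by a difference of -0.56 (adjusted p = 0.000111). A link between DOT6 and the genes of these lists was not tested. With strain names exchanged on the untagged arrays only, 25 small-subunit genes would be higher and 5 lower, and 21 and 4 large-subunit genes; the RNA polymerase I list would have 8 and 4. The fall of HMO1 was lost when either set 2 or set 3 of dot4-1 or any set of untagged DOT4 was left out.

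Of 53 cytosolic small-subunit protein genes 7 rose and 16 fell, at a median difference of -0.045, and of 76 large-subunit protein genes 21 rose and 26 fell, at a median of -0.060. Both medians turn positive without centring (0.048 and 0.033) and with scaled arrays (0.067 and 0.061), and with scaled arrays the counts of falls were 1 and 2. Side by side, these genes lay below the reference in both strains, at a median of -0.21 in dot4-1 and -0.15 in untagged DOT4 for the small-subunit list and -0.21 and -0.16 for the other. This depends on the direction of the untagged arrays: turned, 0 small-subunit genes were higher and 47 lower, 2 large-subunit genes were higher and 54 lower, and both medians were -0.35. Large-subunit falls numbered 16 without set 3 of untagged DOT4 and 17 without set 3 of dot4-1. RPS22B at -0.55 and RPL4B at -0.48 were the largest falls named, and RPL35A and RPL35B, a duplicated pair, both rose by 0.57. Among 39 genes of the mitochondrial large subunit 5 rose and 11 fell, but the falls numbered 4 and 6 without sets 2 and 3 of dot4-1, 5 without set 3 of untagged DOT4 and 3 without centring. Turned, 22 were higher and 1 lower, and with scaled arrays 1 was higher. In the main values MRPL19 was the largest rise, MRPL27 was at 0.34, and IMG2 and MRPL23 at -0.40 were the largest falls named.

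**Figure D3:**
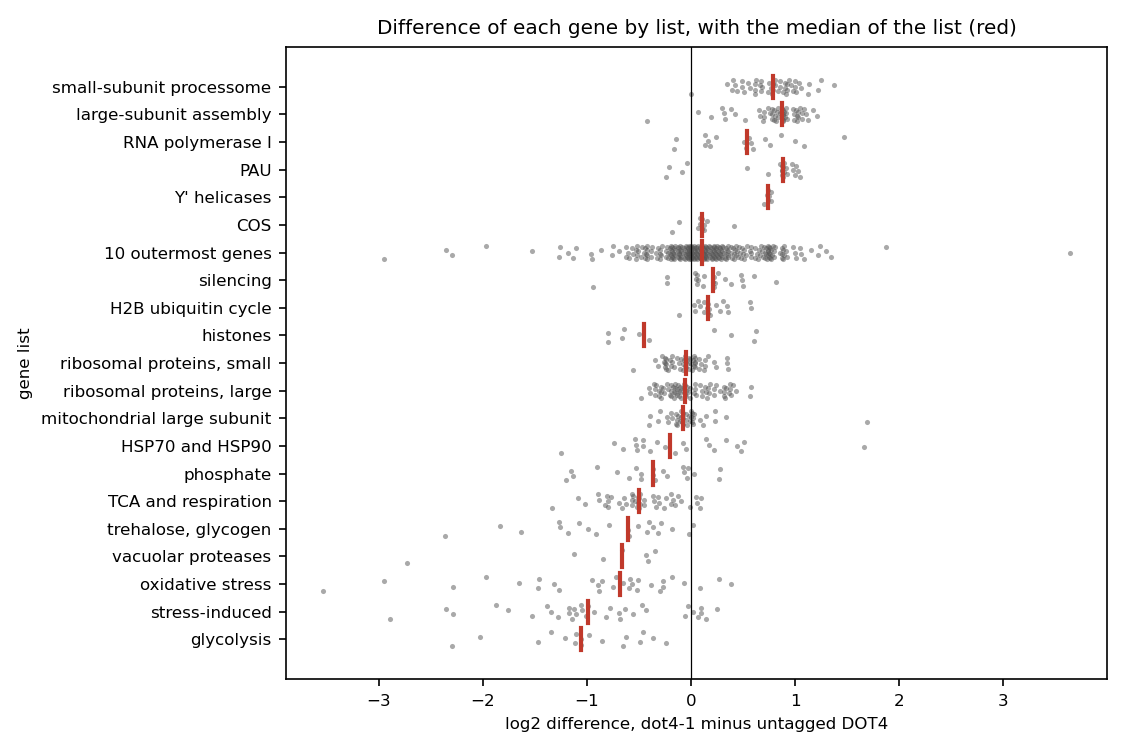
Log2 difference of dot4-1 minus untagged DOT4 (horizontal axis) for each gene of the lists (vertical axis); every point is a gene and red bars are list medians. The ribosome assembly lists centre on 0.79 and 0.88, glycolysis on -1.05 and stress-induced genes on -0.99, while both ribosomal protein lists centre near 0, though not with the untagged arrays turned.

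Genes of sugar breakdown and of reserve carbohydrates were lower in dot4-1. All 17 glycolysis genes fell, with differences from -2.29 to -0.24 and a median of -1.05, which was -0.63 turned, with 16 genes lower. PGK1, the phosphoglycerate kinase gene, and TDH1, a glyceraldehyde phosphate dehydrogenase gene, fell by 1.47 and 1.34 on the log2 scale, behind HXK1 and GLK1. The list median in sets 1, 2 and 3 was -0.78, -0.80 and -0.88 in dot4-1 and 0.13, 0.039 and 0.34 in untagged DOT4. Of 21 trehalose and glycogen genes 18 fell and 0 rose, with a median of -0.61, and turned, 13 were lower and 4 higher. Beside PGM2, these included the glycogen phosphorylase gene GPH1 at -1.83, the branching enzyme gene GLC3 at -1.64 and the glycogen synthase gene GSY2 at -1.27. GLC3 varied among the sets of dot4-1, at -1.92, -1.09 and -1.19, all well below 0.30, 0.065 and 0.34 in untagged DOT4.

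Respiration genes followed at a smaller size: 39 of 46 TCA cycle and respiratory chain genes fell and 0 rose, with a median of -0.50. CIT1, the mitochondrial citrate synthase gene, was at -0.66, -0.83 and -0.86 in dot4-1 and at 0.62, 0.46 and 0.58 in untagged DOT4, which made it 2.52-fold lower. SDH2 at -1.08, CYT1 at -1.02 and COX5B at -0.90 were the next largest. With strain names exchanged on the untagged arrays, 10 of these genes would be higher and 11 lower, so this list depends on the direction of those arrays.

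Of 35 genes induced by stress, 27 fell and 0 rose, with a median difference of -0.99, and 17 of them fell at least 2-fold. With scaled arrays 24 fell and 3 rose, turned 22 and 3 with a median of -0.43, and without set 1 of untagged DOT4 26 and 2. YGP1, HSP31, GRE2 and HSP26 were the largest, with values above. In untagged DOT4, 19 stress-induced genes passed above the reference and 4 below it. HSP30, a plasma membrane heat shock gene, was at -1.56, -1.89 and -1.62 in dot4-1 and -1.75, -2.04 and -2.04 in untagged DOT4. Both strains thus lay far below the reference, in the direction used for the untagged arrays. The sets overlapped, and the difference of 0.25 did not pass (95% interval 0.024 to 0.48, adjusted p = 0.0525), although it passed at 1.39 with scaled arrays. SPI1, a cell wall gene, was also low in both strains in that direction, at -2.06 ± 0.27 and -1.07 ± 0.21. Its difference of -0.99 changed to 0.096 with scaled arrays.

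Oxidative stress and reductase genes fell in 25 of 30 cases and rose in 2 (GPX2 and CTA1, named after their values were seen), with a median of -0.69. All 7 vacuolar protease genes fell, with a median of -0.66, CPS1 at -1.13, the carboxypeptidase Y gene PRC1 at -0.84 and PEP4 at -0.66 coming after APE1. The HSP70 and HSP90 list was divided: 6 of 22 rose and 10 fell, with SSA3 at 1.66 against SSE2 at -1.25, the mitochondrial chaperonin gene HSP60 at -0.74 and KAR2 of the endoplasmic reticulum at -0.65. That split was 1 higher and 12 lower with scaled arrays, and 10 higher and 5 lower turned. Of the 117 genes at least 2-fold lower in dot4-1, 41 were in the glycolysis, reserve carbohydrate, stress or oxidative stress lists (35% of those genes and 40.2% of the 102 genes in the lists), against 1.89% of all genes tested.

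**Figure D4:**
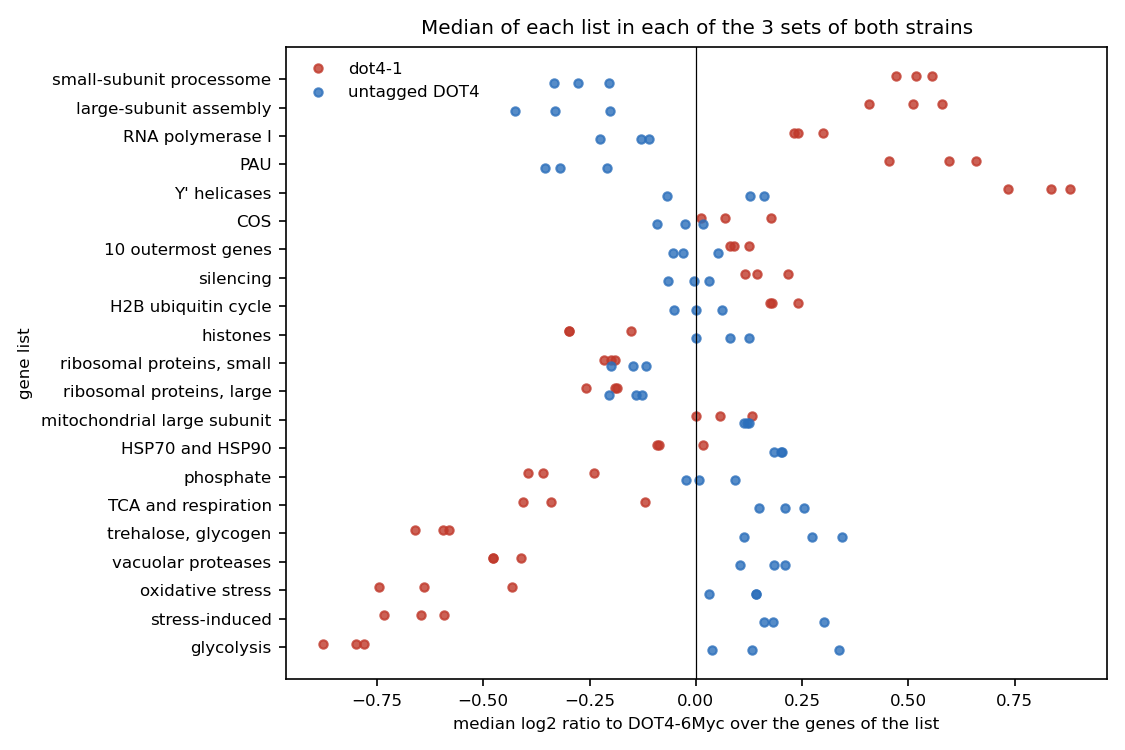
Median log2 ratio to DOT4-6Myc (horizontal axis) over the genes of each list (vertical axis), one point for each of the 3 sets of dot4-1 and of untagged DOT4. The sets of the strains are apart in the ribosome assembly, PAU, Y' helicase, carbohydrate and stress lists, and they overlap in the COS list and in both ribosomal protein lists.

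Genes near chromosome ends did not move as 1 group. The Y' helicases, encoded by the repeated Y' elements next to telomeres, were all higher in dot4-1: 7 of 7 rose, with differences of 0.70 to 0.77. YRF1-6 was at 0.84 ± 0.052 in dot4-1 and 0.073 ± 0.11 in untagged DOT4. It was also high in the null, at 1.00 ± 0.17, and in dot4-5, at 0.83 ± 0.040. In dot4-1 minus dot4 null, 0 of the 7 passed in limma, and 2 were lower at an unadjusted p under 0.05. These copies are nearly identical, so the 7 values are close to 1 measurement. The median fell to 0.41 with scaled arrays. Of 23 PAU genes, which encode seripauperin mannoproteins and are also repeated, 19 rose and 2 fell (PAU18 and PAU23), with a median of 0.88. Turned, 16 PAU genes were higher and 4 lower with a median of 0.22, and 0 were lower without centring or with scaled arrays. PAU20 had 0.55, 0.76 and 0.74 against -0.38, -0.33 and -0.39, a difference of 1.05, and PAU5, PAU3 and PAU4 rose by 1.00 to 1.03. By contrast, 1 of 11 COS genes rose (COS8, by 0.42), 1 fell (COS9, difference -0.12) and 9 did not pass. Turned, the rise of COS8 was lost, and 2 COS genes were lower. The fall of COS9 was lost without set 2 or 3 of either strain. It was also lost without centring, with scaled arrays, with either dye alone, in a fit of both strains alone and with a replicate block. PAU18, PAU23 and COS9 were named after their values were seen. COS12 was the least certain, at -1.26, 0.48 and -0.28 in dot4-1. Of the 294 tested genes among the 10 outermost of each chromosome end, 117 rose and 63 fell, with a median of 0.10. In both directions together 61.2% of them passed, close to the 62.8% of all genes. Rises outnumbered falls among them, whereas 31.6% of all genes rose and 31.1% fell. At least 2-fold, 3.74% of them were higher and 3.4% lower, against 1.03% and 1.89% of all genes tested. Repeated Y' helicase and PAU genes are among these 294.

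Of the genes of silencing and of the H2B ubiquitin cycle, 54.5% and 52.6% passed, below the 62.8% of all genes. In the silencing list, 9 of 22 rose and 3 fell, with a median of 0.22, which was 0.090 with scaled arrays. Besides DOT6, the sirtuin gene HST3 was higher by 0.82 (0.99 ± 0.27 against 0.17 ± 0.028), RAP1, whose product binds telomere repeats and ribosomal protein promoters, by 0.60, and DOT1, the H3K79 methyltransferase gene, by 0.50. Of 19 genes that attach, remove or act after ubiquitin on H2B, 10 rose and 0 fell, and with scaled arrays 5 rose. BRE1, the ubiquitin ligase gene for H2B, was at 0.50, 0.57 and 0.58 against -0.036, 0.028 and -0.078, a difference of 0.58, and BRE2, SET1 and SHG1, of the H3K4 methyltransferase complex, rose by 0.57, 0.35 and 0.35.

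Histone genes passed in 10 of 10 cases, 4 higher and 6 lower. The H2A and H2B genes fell and the H3 and H4 genes rose, but turned, 5 of the 10 were higher and 3 lower, with a median of 0.035 against -0.45, and HTB1 was at -0.11 and did not pass. HTB1 and HTB2, for H2B, fell by 0.80 and 0.79 on the log2 scale, and HTA1 and HTA2, for H2A, by 0.67 and 0.64. HTB1 was at -0.36, -0.47 and -0.52 in dot4-1 and at 0.37, 0.25 and 0.41 in untagged DOT4. The H4 genes HHF1 and HHF2 rose by 0.60 and 0.62 and the H3 genes HHT1 and HHT2 by 0.39 and 0.22; these 4 were named after their values were seen. Each pair is nearly identical in sequence, so its members cannot be read apart.

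Nutrient genes split by pathway. In the phosphate list 14 of 21 genes fell and 2 rose (PHO2 and PHM8, named after their values were seen), with a median of -0.37. With scaled arrays 9 fell and 1 rose. PHO8, the vacuolar alkaline phosphatase gene, was lower by a difference of -1.20, PHM6 by -1.15 and SPL2 by -0.90. PHM6 was at -1.14, -1.15 and -1.13 in dot4-1 against -0.021, 0.019 and 0.045. The phosphate transporter gene PHO89 was low and variable in both strains, at -2.49, -1.36 and -1.47 against -0.37, -0.54 and -1.01, with a difference of -1.13 (adjusted p = 0.00412) that fell short at -0.28 with scaled arrays. Of 13 zinc genes 4 rose, ADH4 among them, and 3 fell; turned, 1 was higher and 8 lower, and without set 3 of untagged DOT4 the counts were 2 and 1. Of these, ZRT1 had 0.46, 1.04 and 0.89 in dot4-1 against -0.99, -1.08 and -1.16 in untagged DOT4, while the zinc regulator gene ZAP1 rose by 0.28 and DPP1 had a difference of -0.62.

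The 13 purine genes, ADE2 included, had list medians of -0.36 in dot4-1 and -0.40 in untagged DOT4, and 4 rose and 4 fell between the strains. Turned, 1 was higher and 11 lower, with a median difference of -0.66 against -0.030, and with scaled arrays 7 were higher and 2 lower. BAS1, which encodes an activator of this pathway, rose by 0.66, and ADE3 had a difference of -0.60. ADE17, at -0.52, turned to 0.12 with scaled arrays. Of 15 pyrimidine genes other than URA3, 7 rose and 5 fell, while turned 2 were higher and 11 lower. URA7 and URA8, both for CTP synthase, had differences of 0.87 and -0.54, URA7 being at -0.17 turned. PPR1, the activator of the URA genes, rose by 0.58 and FUR1 by 0.53. Among 15 genes of filamentous growth 5 rose and 2 fell, and 0 fell without set 3 of either strain. The largest was DIA1 at 1.06, where dot4-1 was near the reference (-0.026 ± 0.051) and untagged DOT4 was low (-1.09 ± 0.22), followed by MSB2 at -0.44, FLO11 at 0.37 (adjusted p = 0.057) and TEC1 at 0.36.

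The a- and alpha-specific genes had differences between -0.49 and 0.46. Of 7 a-specific genes 2 rose (STE2 by 0.37 and STE6 by 0.19) and 1 fell (ASG7, difference -0.40), and MFA1, MFA2, BAR1 and AGA2 were at 0.038, 0.13, 0.22 and -0.24 and did not pass. The rises of STE2 and STE6 were both lost without set 1 of dot4-1 or without set 2 or set 3 of untagged DOT4. Turned, both rises were also lost, and 3 a-specific genes were lower. Of 4 alpha-specific genes SAG1 rose by 0.46 and STE3 had a difference of -0.49, while MF(ALPHA)1 was at -0.20 and MF(ALPHA)2 at -0.0042. Turned, the fall of STE3 was lost. Haploid-specific genes rose in 6 of 8 cases, led by GPA1 at 0.56, FUS1 at 0.49 and STE4 at 0.44, and RME1 fell by 0.76 on the log2 scale; turned, 3 were higher and 2 lower. Ratios to a reference show no level, so the mating type itself was not read.

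The comparison most like this one sets the strain labelled null against untagged DOT4. Where the allele differed from the absence of the gene was tested directly as dot4-1 minus dot4 null, in which the untagged arrays cancel. In that test 608 genes passed (9.81%), 299 higher (4.83%) and 309 lower (4.99%), 14 of them by at least 2-fold (0.226%). This count was 267 without dot4-1 set 2, 349 without dot4-1 set 3 and 37 with scaled arrays. The test did not pair same-numbered sets, so variation that they share would remain in its error. How much they share was not computed. With a replicate block for set number added to the fit, 656 genes passed. Apart from UBP10, which set the direction, URA3 and ADH4 were the largest rises, by 3.44 (adjusted p = 3.15e-05) and 3.42 (adjusted p = 3.26e-05). In the null they stood at 0.60 ± 0.22 and 1.07 ± 0.30, within the range of the untagged sets. HIS3 was lower in dot4-1 than in the null by a difference of -1.11 and TRP1 by -0.79, while LEU2 (-0.0056) did not pass.

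Among the listed groups, the small-subunit processome had 2 genes higher and 3 lower in dot4-1 than in the null. Large-subunit assembly had 0 higher in limma (2 at an unadjusted p under 0.05) and 1 lower, and the medians were 0.012 and -0.027. The stress-induced list had 4 higher and 14 lower, with a median of -0.29. The 5 largest falls were genes in which dot4-1 and untagged DOT4 were both below the reference and the null was not far from it. Turned, untagged DOT4 would lie above the reference in these genes, while the differences between dot4-1 and the null stay as they are. HSP30 was at 0.39, 0.34 and 0.085 in the null, with a difference of -1.96, and SPI1 had a difference of -1.79, with 0.081, -0.42 and -0.48 in the null. FMP48, a mitochondrial kinase-like gene, was at 0.19 ± 0.069 in the null against -1.27 ± 0.22 in dot4-1, MGA1, a heat shock factor-like gene, had a difference of -1.29, and URA1, the dihydroorotate dehydrogenase gene, lay at -1.07, -0.97 and -0.99 in dot4-1, -0.69, -0.88 and -0.88 in untagged DOT4 and 0.21, 0.29 and 0.21 in the null.

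**Figure D5:**
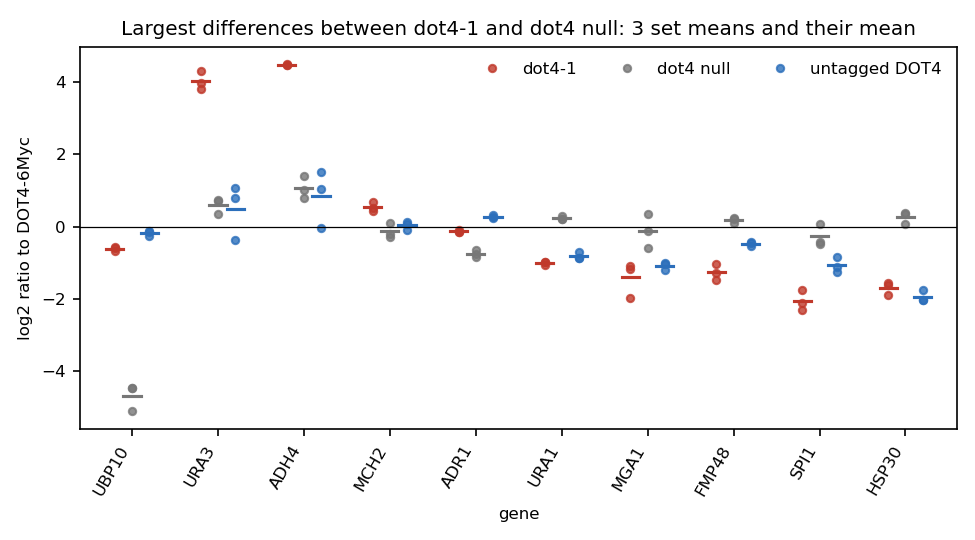
Log2 ratio to DOT4-6Myc (vertical axis) of the 5 genes with the largest rises and the 5 with the largest falls in dot4-1 against the strain labelled null (horizontal axis), with untagged DOT4 beside them. Points are the 3 set means and bars their mean; in URA1, FMP48, SPI1 and HSP30 every set of dot4-1 and of untagged DOT4 lies below every set of the null, which for untagged DOT4 holds only in the direction used.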

How the data were processed

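The table holds 1 value per array for 6205 open reading frames on 24 arrays, and 83 of its 148920 cells hold no value. What the authors deposited was read as log2 ratios: sizes equal to log2 of 3, 4 or 5 occurred in 19, 8 and 4 cells, while adjacent sizes occurred in 0.3, 0.15 and 0.05 on average. The sources used here give no array type, background correction, normalization or software. The dye component correlated at 0.822 to 0.906 between strains, so the numerator dye was the same throughout. Arrays were centred on their median, turned, and averaged over both dye orders of a set. The 12 set means of the 4 strains were fitted with limma 3.58.1 (lmFit, eBayes; R 4.3.3), with no covariate and 8 residual degrees of freedom. Genes with at least 2 of 3 sets in every strain were tested, which left 6195. All tests had 2 sides; p-values were adjusted by Benjamini-Hochberg across the tested genes, and 0.05 was the threshold. The fit was tested on simulated data. Of the IDs, 5705 matched the RefSeq R64 table used for names and gene order.

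Named genes were UBP10 and its neighbours, the reporters and markers, the 15 genes each way that differed most among those called with sets apart, up to 4 members with the largest difference in each list with all mating type markers, and the 5 largest each way against the null. The rule, the strains compared and the lists were chosen with earlier results of these data known. The fit did not pair sets by number. Deviations of same-numbered sets of dot4-1 and untagged DOT4 correlated at 0.018, 0.24 and 0.015. For dot4-1 and the null this was not computed. Their sets moved alike in GTT2, at -2.06, -2.46 and -2.65 in dot4-1 and -2.15, -2.53 and -2.77 in the null. In SSA3 they did not, at 1.448, 1.416 and 1.675 in dot4-1 and 0.829, 1.022 and 0.995 in the null. With 3 sets a strain, the number of arrays limits precision.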

Additional observations from a re-analysis of the deposited data

Results flagged for a closer look

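The 5 largest differences each way between the effect of dot4-1 and that of the null, each against untagged DOT4, stood out because the test of the difference itself passed in limma. Those higher in dot4-1 were UBP10 by 4.07, which set the direction and is given as a description, URA3 by 3.44 and ADH4 by 3.42, MCH2 by 0.67 (adjusted p = 0.00341) and ADR1 by 0.63 (adjusted p = 3.26e-05). Those lower in dot4-1 were HSP30 at -1.96, SPI1 at -1.79, FMP48 at -1.45, MGA1 at -1.29 (adjusted p = 0.00552) and URA1 at -1.25. ADR1, an activator of genes for growth without glucose, had a ratio to DOT4-6Myc of -0.13 ± 0.034 in dot4-1, -0.76 ± 0.089 in the null and 0.28 ± 0.041 in untagged DOT4, and its difference from untagged DOT4 was 0.15 with the untagged arrays turned the other way. MCH2 was at 0.54 ± 0.14, -0.13 ± 0.20 and 0.04 ± 0.11. With scaled arrays the calls of MCH2 at 0.41 and MGA1 at -0.77 were lost.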

How the results depend on the processing

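The number of genes past the threshold for dot4-1 minus untagged DOT4 (3888) was 3457 without centring, 2834 after scaling the arrays to one spread, 3732 and 3360 with the strain in Cy5 or Cy3 only, 3892 in a fit of both strains alone, and 3883 with no filter. Leaving out one set at a time gave 3450 to 3868, with 1747 to 1956 higher and 1689 to 1912 lower. Without centring the falls were 1161 and 66.4% of the calls were higher, against 50.4%. The fit did not pair sets by number, and a replicate block gave 3963 calls.

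For dot4-1 minus dot4 null (608), the count was 242 without centring, 37 with scaled arrays and 339 with the strain in Cy5 only. It was 267 to 528 with a set of dot4-1 or of untagged DOT4 left out. Sets of the null were not left out, and the untagged sets enter this contrast only through the shared estimate of the spread. For untagged DOT4 against DOT4-6Myc (1599), leaving out a set gave 913 to 1712, the low values being 981 without untagged set 2 and 913 without untagged set 3. For dot4-1 against DOT4-6Myc (4545) the range was 4019 to 4537.

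Of the 136 named genes, 111 kept their sign under every alternative run. Without centring, CAN1 turned to 0.0063 and MF(ALPHA)2 to 0.089. With scaled arrays ADE17 turned to 0.12, SPI1 to 0.096, MGA1 to 0.50 and URA1 to 0.40. With one dye, COS12 turned to 0.56 (Cy5), LYS2 to 0.67, MF(ALPHA)2 to 0.046 and MFA1 to -0.015 (Cy3). With one set left out, COS12 ranged from -0.60 to 0.27, MF(ALPHA)2 from -0.049 to 0.027, MFA1 from -0.082 to 0.12 and MFA2 from -0.0038 to 0.21. With the untagged arrays turned the other way (3760 calls), MRPL19 was at -0.50, MET17 at -0.076, CAN1 at 0.13, ZRT1 at -0.28, HXK1 at 0.27, RPS30B at -0.15, RPS26B at -0.048, CYT1 at 0.13, COX5B at 0.073, KAR2 at 0.048, DIA1 at -1.11, MSB2 at 0.029, URA7 at -0.17, MF(ALPHA)2 at 0.087, MFA1 at -0.42, STE6 at -0.021, ADR1 at 0.15 and HSP30 at -3.63. Apart from the turned arrays, whose own construction reverses 1 side, the cause was not tested. Signal over background could not be examined from ratios alone.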
